A study of Mus musculus with 10 samples.

Results

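The immunoglobulin and lymphocyte genes described here are 10 of 45037 probe sets on a mouse expression array, under 6 listed names: Igh-VJ558 and Igk-C (4 probe sets), Il7r, Cd3g and Slfn2 (1 each) and Ebf1 (3). They are every entry in the authors' deposited table of 7806 significant probe sets whose symbol begins with Igh-, Igk- or Igl-, or is 1 of the other 4 names; no Igl- symbol was found. Cochlear RNA came from 5 GeO2 samples, from male CBA mice that ate germanium dioxide (GeO2, 0.15%) for 4 months, and from 5 control samples, from male CBA mice on normal chow. All mice were 6 months old, and each sample was hybridised to 1 array. CBA is an inbred strain, and germanium dioxide is an oxide whose prolonged intake injures kidney, muscle and nerve. Nothing in the labels tells whether a sample is a single mouse or pooled cochleae, and the design note says that no replicates were done, so the spread between samples may be technical in part. The series profiled the cochlea in germanium dioxide-related hearing loss by setting each GeO2 sample against each control sample. The authors' table was built from the same comparison of GeO2 with control, and its p-values for the members ran from 0.00056 (Ebf1, 1416302_at) to 0.0498 (Igh-VJ558, 1425763_x_at). The GeO2 and control levels of the members are therefore a description, and no p-value is given for them. Just inside the table's limit stood 1425763_x_at and Ebf1 1441627_at (p = 0.0484 in the authors' deposited table), and probe sets beyond it have no name here.

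B lymphocytes arise in bone marrow, where the transcription factor Ebf1 commits progenitors to the B lineage and the interleukin-7 receptor, whose alpha chain is Il7r, carries the signal for their growth. Their later products are immunoglobulins, built from heavy chains (Igh loci) and light chains (kappa at Igk, lambda at Igl), which antibody-secreting plasma cells transcribe at very high levels. T lymphocytes carry the T cell receptor with the CD3 complex, of which Cd3g is the gamma chain, and naive T cells also depend on Il7r. Slfn2 is a Schlafen protein that keeps T cells quiescent and is also expressed in myeloid cells. Ebf1 is not restricted to B cells: adipocytes, marrow stroma and other mesenchymal cells express it. The cochlea lies in temporal bone, and the resident immune cells of the inner ear are mainly macrophages.

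RefSeq promoter windows on GRCm38.p6, from 250 bases before to 50 bases after a transcript start, matched 4 of the 6 listed names. The windows of Il7r, Slfn2 and Cd3g are shown because each of these 3 genes was higher in GeO2, and the first of 2 Ebf1 starts because Ebf1's brightest probe set was lower. Capitals mark matches to any of 4 motifs, searched on both strands and chosen after the windows had been read. These were an Ets-type motif ACTTCCTG, the palindromic EBF motif, a Runx-type motif TGTGGT and the octamer ATGCAAAT of immunoglobulin promoters.
Il7r, chr15:9529827-9530126, minus strand: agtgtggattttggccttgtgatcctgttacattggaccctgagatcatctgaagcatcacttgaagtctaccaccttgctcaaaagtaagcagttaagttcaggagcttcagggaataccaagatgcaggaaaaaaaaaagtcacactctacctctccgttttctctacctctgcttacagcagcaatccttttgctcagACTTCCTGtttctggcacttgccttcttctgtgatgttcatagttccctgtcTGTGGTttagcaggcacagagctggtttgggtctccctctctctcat
Slfn2, chr11:83064862-83065161, plus strand: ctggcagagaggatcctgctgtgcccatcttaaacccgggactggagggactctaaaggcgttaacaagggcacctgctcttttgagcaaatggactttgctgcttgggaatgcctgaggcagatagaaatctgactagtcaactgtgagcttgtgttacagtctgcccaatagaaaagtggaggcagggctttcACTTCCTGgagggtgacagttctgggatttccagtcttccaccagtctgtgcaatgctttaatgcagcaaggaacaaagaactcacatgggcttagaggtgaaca
Cd3g, chr9:44980382-44980681, minus strand: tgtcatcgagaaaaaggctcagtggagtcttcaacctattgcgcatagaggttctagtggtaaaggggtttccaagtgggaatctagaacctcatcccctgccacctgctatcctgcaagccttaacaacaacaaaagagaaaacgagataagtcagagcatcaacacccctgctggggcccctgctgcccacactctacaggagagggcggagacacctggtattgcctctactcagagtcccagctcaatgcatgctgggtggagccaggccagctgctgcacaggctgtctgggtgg
Ebf1, chr11:44617850-44618149, plus strand: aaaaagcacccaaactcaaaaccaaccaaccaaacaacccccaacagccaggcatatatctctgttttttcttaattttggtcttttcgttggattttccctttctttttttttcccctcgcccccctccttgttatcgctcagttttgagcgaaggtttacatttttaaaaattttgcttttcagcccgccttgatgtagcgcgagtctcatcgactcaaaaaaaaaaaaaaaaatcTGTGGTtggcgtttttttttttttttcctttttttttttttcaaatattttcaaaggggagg

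The Ets-type motif stood at position −49 from the start in Il7r and −55 in Slfn2, and 3.33% of all 32851 windows hold it. The Runx-type motif stood at position 4 in Il7r and −12 in Ebf1, and 16.8% of windows hold it. The 2 matches in Il7r do not overlap. Cd3g held none of the 4 motifs, and neither did the other Ebf1 start. No EBF motif or octamer was found in the 4 windows, against 0.904% and 1.74% of all windows. Because the motifs were chosen after these windows had been read, the shares are no test of the matches. A match is a run of letters and not a measured binding site.

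Signals are array units on a linear scale, already scaled between arrays by the authors. The 2% trimmed mean was 1496 on each of the 10 arrays within rounding, and the median signal ran from 447 to 508 units. The number of arrays limits the precision. Differences are GeO2 minus control of log2(signal + 16), a scale on which dim probe sets change less than in signal, with the standard error (SE) from the spread within groups. Folds are powers of 2 of these differences. Among named markers of the cochlea, Gjb6 and Otor were bright. The hair cell gene Tmc1 was dim, with means of 96.6 units in GeO2 and 49.6 units in control. Gjb6, a gap junction protein of supporting cells, measured 41547 ± 3813 units in GeO2 and 36225 ± 2518 units in control (SD, n = 5 each). Otor, a secreted protein of spiral ligament and limbus fibrocytes, measured 13704 ± 2848 units in GeO2 and 21238 ± 3602 units in control (SD, n = 5 each).

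The heavy chain probe sets showed the widest gap between groups among the members. Igh-VJ558 names the J558 family, the largest family of mouse heavy chain variable segments. Its probe set 1425763_x_at gave 23381, 7578, 35369, 2040.2 and 60701 units in GeO2 replicates 1 to 5, against 2356, 1964, 1522, 887 and 881 units in control replicates 1 to 5. GeO2 replicates 1, 2, 3 and 5 lay above every control array, and GeO2 replicate 4 lay within the control range, so the groups overlapped. The means were 25814 ± 23516 units in GeO2 and 1522 ± 653 units in control (SD, n = 5 each), with a log2 difference of 3.41 (SE 0.92), or 10.6-fold. Within GeO2 the highest array was 29.8 times the lowest, against 2.67 times within control. In whole-cochlea RNA, more cells of a type and more RNA per cell cannot be told apart.

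The other heavy chain probe set, 1421653_a_at, had 22356, 10388, 32740.3, 1837 and 44859 units in GeO2 replicates 1 to 5, against 1996, 2354, 1316, 710.1 and 1020.0 units in control replicates 1 to 5. Its order of GeO2 arrays was the same, with replicate 5 highest and replicate 4 lowest. Its log2 difference was 3.40 (SE 0.88), or 10.6-fold, and GeO2 was above control in 23 of 25 array pairs. The authors' deposited table gives signed fold changes of 9.7 for 1421653_a_at and 11 for 1425763_x_at, as averages over 25 pairwise comparisons. GeO2 replicate 4 moved these values most: without it the folds were 17.5 and 17.7 for 1425763_x_at and 1421653_a_at. Without GeO2 replicate 5, the brightest array, they were 7.49 and 7.97.

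Light chain signal was higher in the same 4 GeO2 arrays. Igk-C is the kappa constant region, and both of its probe sets also list the variable segment Igk-V28. Probe set 1427660_x_at read 20392, 14452, 18949, 4184 and 33597 units in GeO2 replicates 1 to 5, against 7389, 6958, 4672, 3314 and 3699.8 units in control replicates 1 to 5. GeO2 replicate 4 again lay within the control range, and replicates 1, 2, 3 and 5 above it. The means were 18315 ± 10640.1 units in GeO2 and 5207 ± 1869 units in control (SD, n = 5 each), a difference of 1.61 (SE 0.55) on the log2 scale or 3.05-fold.

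Probe set 1452417_x_at read 17299, 14147, 14984, 3802 and 27238 units in GeO2 replicates 1 to 5, against 8596, 4635, 3533, 2644 and 3121 units in control replicates 1 to 5. Its GeO2 arrays followed the order of 1427660_x_at, with replicate 5 first and replicate 4 last, and its log2 difference was 1.67 (SE 0.56), or 3.17-fold. The kappa differences were smaller than those at the J558 heavy chain probe sets, and that gap between chains was not tested. Of the 4 immunoglobulin probe sets, 1 carries the suffix _a_at and 3 the suffix _x_at, which marks probes that can bind related sequences. Which gene segments each probe set binds was not analysed here. Their signal therefore cannot be assigned to 1 segment, and the 4 are not taken as independent measurements.

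**Figure D1:**
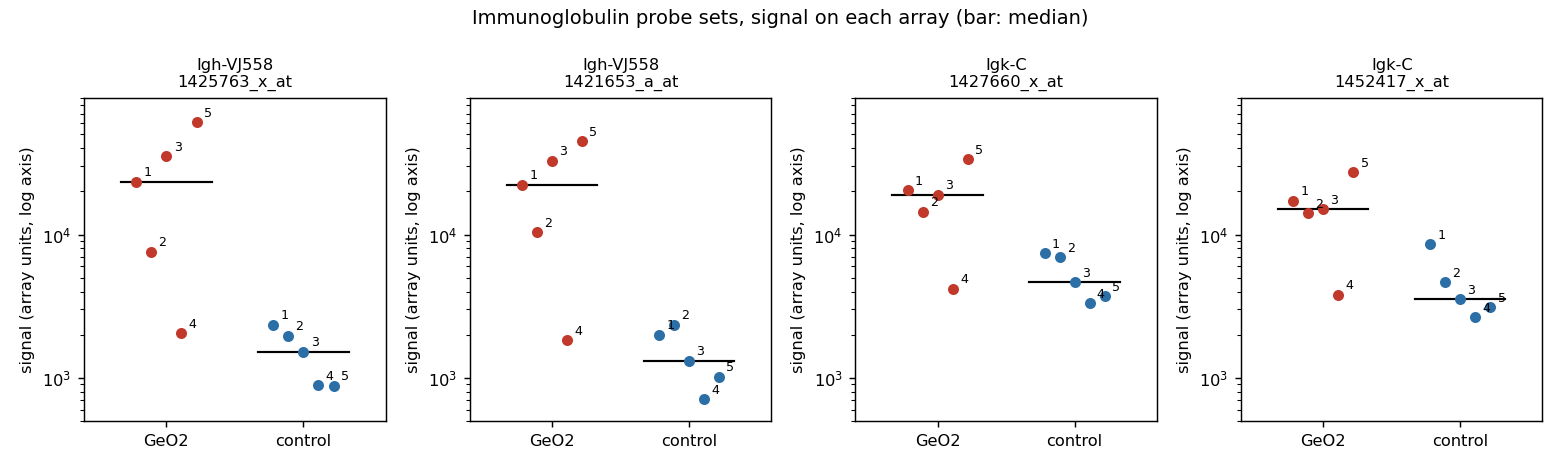
Signal in array units (log axis) of the 4 immunoglobulin probe sets on each array, GeO2 (red) left of control (blue), with the replicate number beside each point and a bar at the group median. GeO2 replicates 1, 2, 3 and 5 lie above all control arrays in each panel, and GeO2 replicate 4 lies within the control range.

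Among receptors of lymphocytes, Il7r showed the same split of the GeO2 arrays. Its probe set 1448575_at gave 2468, 782, 1008, 431 and 2170.3 units in GeO2 replicates 1 to 5, against 538, 399.5, 349, 298 and 329 units in control replicates 1 to 5. GeO2 replicates 1 and 5 were highest, and GeO2 replicate 4 lay below control replicate 1, so the groups overlapped in 1 of 25 array pairs. The means were 1372 ± 895 units in GeO2 and 383 ± 94.5 units in control (SD, n = 5 each), with a log2 difference of 1.55 (SE 0.48), or 2.93-fold. Leaving out any single array kept the difference between 1.27 and 1.89. The authors' deposited fold change for this probe set was 2.5.

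Cd3g was dim. Its mean over all arrays fell in the lowest 40% of probe sets, which were left out of the test across the array, at a limit equal to a signal of 283 units. Probe set 1419178_at gave 279.7, 152, 444, 124 and 600.2 units in GeO2 replicates 1 to 5, against 79.8, 103, 8.1, 145 and 72.4 units in control replicates 1 to 5. GeO2 replicates 1, 2, 3 and 5 exceeded every control array, and GeO2 replicate 4 lay below control replicate 4. The means were 319.9 ± 201 units in GeO2 and 81.7 ± 49.9 units in control (SD, n = 5 each). The log2 difference was 1.79 (SE 0.62), or 3.47-fold, and it depends on control replicate 3, whose signal of 8.1 units is under the offset of 16. Without that array it was 1.35. The authors' deposited fold change for this probe set was smaller, at 2.4.

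Slfn2 was the 1 member higher in GeO2 whose groups did not overlap. Probe set 1450165_at gave 676, 777, 1254, 689 and 1052 units in GeO2 replicates 1 to 5, against 375, 427, 528, 187 and 292 units in control replicates 1 to 5. All 5 GeO2 arrays lay above all 5 control arrays, GeO2 replicate 4 included, and the lowest GeO2 array was replicate 1. The means were 889.6 ± 254 units in GeO2 and 362 ± 129.7 units in control (SD, n = 5 each), with a log2 difference of 1.3 (SE 0.30), or 2.45-fold. The spread within GeO2 was 1.85 times from lowest to highest, the narrowest of the probe sets higher in GeO2 other than Ebf1 1448293_at.

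**Figure D2:**
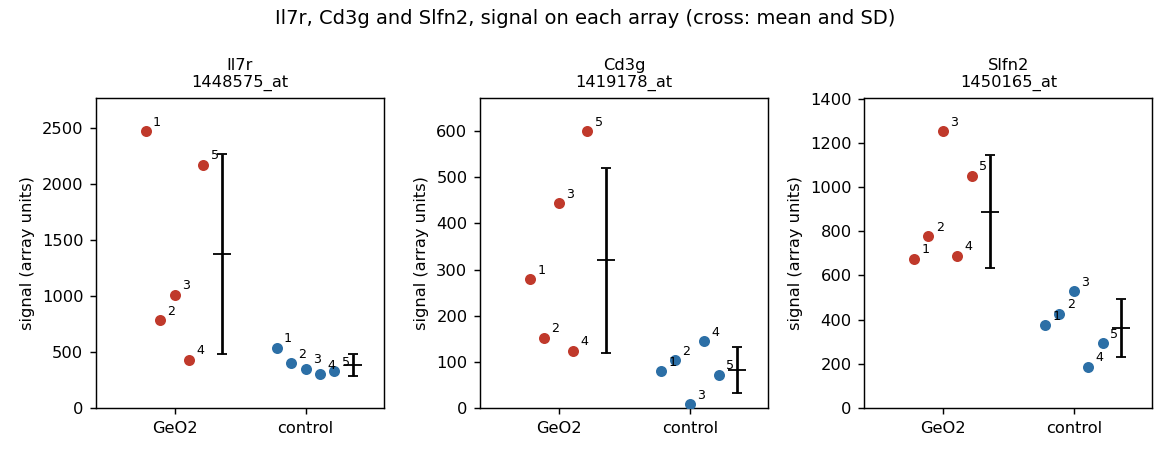
Signal in array units of Il7r, Cd3g and Slfn2 on each array (linear axes from 0), GeO2 (red) left of control (blue), with replicate numbers and, beside each group, the mean and SD. GeO2 replicate 4 lies within the control range for Il7r and Cd3g and above it for Slfn2.

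Ebf1 differed in direction between its probe sets. The brightest, 1416302_at, gave 1735, 1464, 2109.6, 1619.5 and 2070.0 units in GeO2 replicates 1 to 5, against 2958, 2565, 3506, 2667 and 3034 units in control replicates 1 to 5. Every GeO2 array lay below every control array. The means were 1799.6 ± 282 units in GeO2 and 2946 ± 369 units in control (SD, n = 5 each), a log2 difference of −0.71 (SE 0.13), which is 1.64-fold lower.

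Ebf1 probe set 1441627_at was also lower in GeO2, by 0.45 (SE 0.18) on the log2 scale, with 1447, 1118, 1373, 2308 and 1484 units in GeO2 replicates 1 to 5, against 2209, 1983, 1776, 2284 and 2037 units in control replicates 1 to 5. GeO2 replicate 4 was above every control array there, and the other 4 GeO2 arrays were below all of them. Without GeO2 replicate 4 the difference was −0.60. Probe set 1448293_at went the other way and gave 1673, 2174, 1251, 2084 and 1723 units in GeO2 replicates 1 to 5, against 1370.2, 1217, 1258, 1508 and 1294 units in control replicates 1 to 5. GeO2 replicates 1, 2, 4 and 5 were above every control array, and replicate 3 lay within the control range, with a log2 difference of 0.40 (SE 0.15). The authors' deposited table lists the same representative public sequence for 1416302_at and 1448293_at, with signed fold changes of −1.6 and 1.3. Which Ebf1 transcripts each probe set detects was not analysed here, so no single direction is given for the gene.

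**Figure D3:**
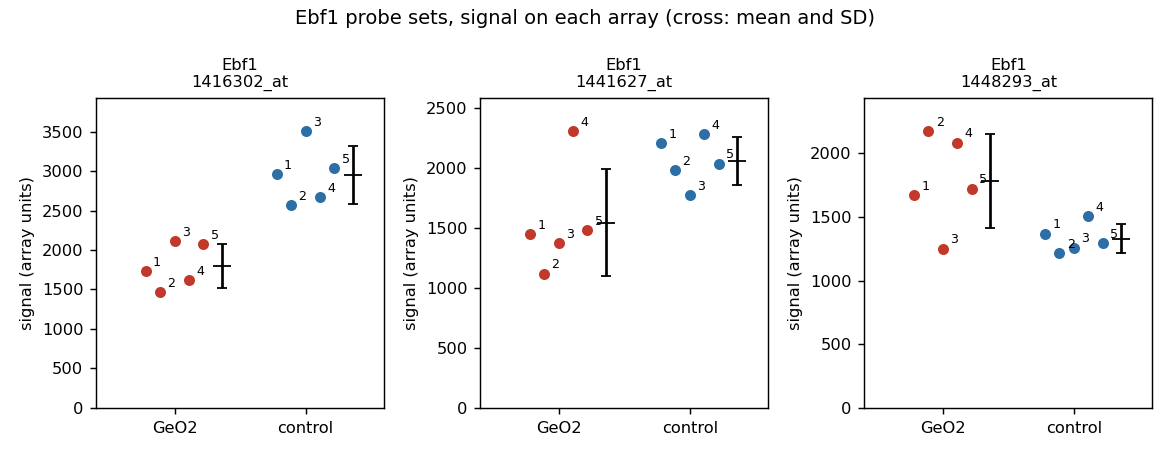
Signal in array units of the 3 Ebf1 probe sets on each array (linear axes from 0), GeO2 (red) left of control (blue), with replicate numbers and, beside each group, the mean and SD. The groups do not overlap for 1416302_at, where GeO2 is lower, and GeO2 is higher for 1448293_at on 4 of 5 arrays.

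Over the 10 members, 8 were higher and 2 lower in GeO2, with a median log2 difference of 1.58, beside −0.02 over the 27022 probe sets tested. Of the 9 bright enough to be tested, 6 were called higher and 1 lower at an adjusted p under 0.05 in limma, a linear model fitted to all 27022 probe sets at once. Over the array, 8.5% of probe sets were called higher and 7.81% lower. Groups did not overlap for 1 member higher in GeO2 (Slfn2) and 1 lower (Ebf1 1416302_at), against 6.55% and 5.62% of all probe sets tested. Nothing is read from these shares, because the members were chosen on this comparison. The 2 members not called were Ebf1 1441627_at and 1448293_at. Both Igk-C probe sets lost their calls without GeO2 replicate 5 or control replicate 5, and 1427660_x_at also without GeO2 replicate 3 or control replicate 4. Ebf1 1441627_at was called without GeO2 replicate 4, and Ebf1 1448293_at without GeO2 replicate 3.

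Arrays differed more within GeO2 than within control for the immunoglobulins and Il7r. GeO2 replicate 4 was the lowest GeO2 array for 6 of 10 member probe sets, namely the 4 immunoglobulin probe sets, Il7r and Cd3g, and GeO2 replicate 5 was the highest for 5. In control, replicate 4 was lowest for 5 probe sets and replicate 1 highest for 4. GeO2 replicate 4 nonetheless lay outside the control range, above it for Slfn2 and below it for Ebf1 1416302_at, as the other GeO2 arrays did.

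Whether members varied together from array to array was asked within groups, since the difference between groups had chosen them. Each array's deviation from its group mean was compared over 10 arrays, by exact permutation within groups (two-sided), for 15 relations with p-values adjusted over all 15. The 15 were the 10 pairs among 5 representatives (1425763_x_at for the immunoglobulins, Ebf1 1416302_at, Il7r, Cd3g and Slfn2), and each of the 5 against the mean of an erythroid marker list. None passed, with a lowest adjusted p of 0.174 for Pearson's r and 0.283 for Spearman's rho. At an unadjusted p under 0.05 there were 3 by Pearson's r and 2 by Spearman's rho. The immunoglobulin probe set and Il7r gave Pearson's r of 0.85 (exact permutation p = 0.0262, adjusted p = 0.174) and Spearman's rho of 0.82 (exact permutation p = 0.0338, adjusted p = 0.283). With the 2 most distant arrays left out, r was 0.57 (exact permutation p = 0.328), over 8 arrays with a narrower range. The immunoglobulin probe set and Cd3g gave an r of 0.55, and Il7r and Cd3g an r of 0.46 (exact permutation p = 0.0962 and 0.19, adjusted p = 0.24 and 0.355). With 2 arrays left out in the same way, these were 0.24 and 0.40. Ebf1 and Slfn2 gave an r of 0.63 (exact permutation p = 0.0581, adjusted p = 0.174). The immunoglobulin probe set gave 0.59 with Ebf1 and 0.55 with Slfn2 (exact permutation p = 0.135 and 0.0559, adjusted p = 0.29 and 0.174). With 2 arrays left out, these 3 were 0.55, 0.54 and 0.59. These values hold for Ebf1 1416302_at, and the other 2 Ebf1 probe sets went the other way, without a test. For 1441627_at and 1448293_at, r was −0.49 and −0.66 with the immunoglobulin probe set, and −0.40 and −0.65 with Slfn2. The other 3 immunoglobulin probe sets gave 0.49, 0.37 and 0.32 with Ebf1 1416302_at. The remaining pairs of representatives ran from −0.16 (Cd3g with Slfn2) to 0.36 (Ebf1 1416302_at with Il7r).

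**Figure D4:**
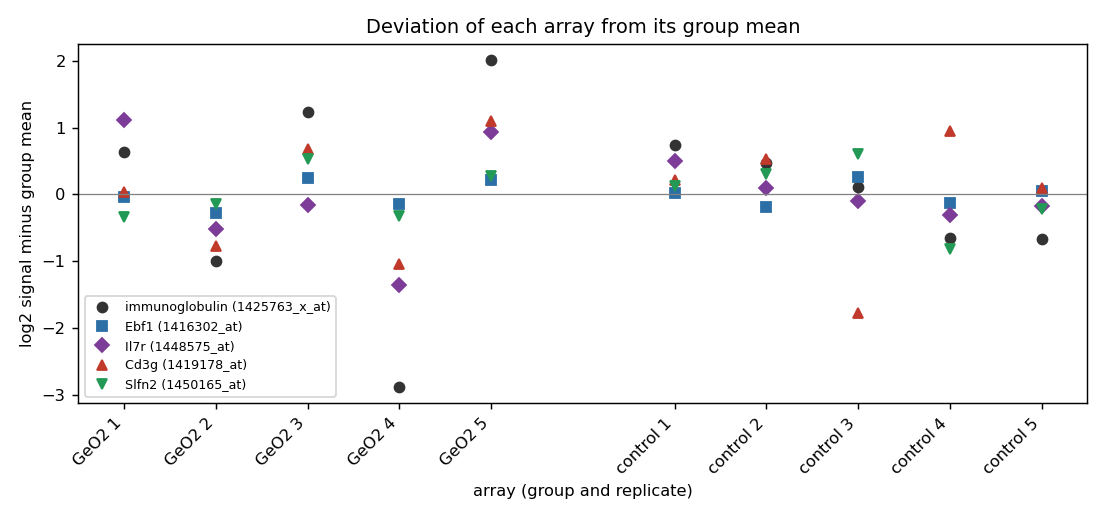
Deviation of each array from its group mean (log2 signal) for the 5 representative probe sets, GeO2 arrays left of control arrays, 1 marker per probe set. The immunoglobulin probe set, Il7r and Cd3g are lowest among GeO2 arrays on replicate 4, and the Ebf1 deviations are the smallest in range.

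Ebf1 1416302_at and the erythroid list gave Pearson's r of −0.80 (exact permutation p = 0.0158, adjusted p = 0.174). Spearman's rho was −0.68 (exact permutation p = 0.0565, adjusted p = 0.283), and neither passed after adjustment. With 2 arrays left out by the same rule, r was −0.52 (exact permutation p = 0.438). Slfn2 and the erythroid list gave Pearson's r of −0.64 (exact permutation p = 0.0369, adjusted p = 0.174) and Spearman's rho of −0.67 (exact permutation p = 0.042, adjusted p = 0.283), and r without the 2 farthest arrays was −0.66 (exact permutation p = 0.16). For the immunoglobulin probe set, Il7r and Cd3g, r with the erythroid list was −0.31, 0.03 and 0.03 (exact permutation p = 0.532, 0.962 and 0.932). With 2 arrays left out for each, these were −0.70, −0.29 and −0.75 (exact permutation p = 0.2, 0.718 and 0.156).

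The probe sets most like the immunoglobulin representative were ranked by Pearson's r of deviations from group means over 10 arrays. The candidates were the 7087 probe sets with 1 symbol in the authors' table that are no members. That table was selected on these same arrays, and dim probe sets were kept in the ranking. The top 5 began with Cd177, a surface protein of neutrophils (r = 0.96), and Slc39a4, a zinc importer (0.92). Next came Nfkbiz, an inducible regulator of NF-kappaB targets (0.92), and both probe sets of Clec4n, the myeloid lectin dectin-2 (0.91 and 0.91). Clec4n 1425951_a_at was too dim to be tested, with 4.9 units in GeO2 replicate 4 and 9.8 to 38.4 units in control. Cd177 had 2290, 1266, 2023, 218 and 4158 units in GeO2 replicates 1 to 5, against 462, 498, 349, 300.0 and 229 units in control replicates 1 to 5. Its GeO2 arrays had replicate 5 highest and replicate 4 lowest, as the immunoglobulins did. The order of Nfkbiz was the same at both ends, with 5255 units in GeO2 replicate 5 and 1975 units in GeO2 replicate 4, above the control range of 1005 to 1332 units.

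The same ranking was made for Ebf1 1416302_at, with the other Ebf1 probe sets left out because they are members. Their r with it was −0.68 (1448293_at) and −0.13 (1441627_at). The top 5 began with Klf6, a zinc finger transcription factor listed as Copeb (r = 0.89), and Arpc1b, a subunit of the actin-nucleating Arp2/3 complex (0.88). Next came Rrbp1, a ribosome receptor of the endoplasmic reticulum (0.86), and Ccnd3, cyclin D3, listed as 9230106B05Rik (0.86). Manf, a secreted stress-induced factor listed as Armet, came last (0.85). Both lists are rankings over 10 arrays, with no test.

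None of the 8 named genes of the B lineage and plasma cell lists that are no members was called. A gene has a name only if the authors' table selected it on these same arrays. The counts of calls in this and the following lists therefore depend on that selection and are a description. Of 22 early B lineage genes listed, 4 had a name in the authors' table, and 2 of these are members. The other 2 were Cd24a and Bach2. Cd24a, a surface glycoprotein of B precursors and many other cells, was at −0.46 (SE 0.18) on the log2 scale. Bach2, a repressor of plasma cell differentiation listed as E030004N02Rik, was at −0.48 (SE 0.15). Of 23 mature B cell genes listed, 3 were named and none passed. Bank1, a B cell scaffold protein, was at −0.67 (SE 0.26) and Ralgps2 at 0.27 (SE 0.07). Fcmr, the IgM Fc receptor, listed as 1810037B05Rik, was at −0.46 (SE 0.18). Of 17 plasma cell genes, 3 were named and none passed. Xbp1, the transcription factor of secretory cells, was at −0.70 (SE 0.28), Ssr4, of the translocon complex, at −0.28 (SE 0.12) and Edem1, of endoplasmic reticulum degradation, at 0.46 (SE 0.16). Cd79a, Cd79b, Ms4a1, Jchain and Mzb1, defining markers of B and plasma cells, were not analysed here, since names come only from the authors' table. Without them, the cell type behind the immunoglobulin signal was not tested.

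T cell genes were scarce among named probe sets. Of 30 listed, 2 were named, Cd3g and Gimap5, a GTPase of lymphocyte survival, and both were too dim to be tested. Gimap5 measured 373 ± 151 units in GeO2 and 202 ± 60.6 units in control (SD, n = 5 each). Of 9 Schlafen genes, Slfn2 alone was named. None of 15 natural killer or cytotoxic genes and none of 10 class II antigen presentation genes was named. Of 30 genes of lymphocyte signalling, 4 were named and none passed, and the largest difference was that of Ptprc, the pan-leukocyte phosphatase CD45, at 1.11 (SE 0.45). The shares of calls over the whole array, given above, are no measure of what lists of selected genes would give without a change.

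**Figure D5:**
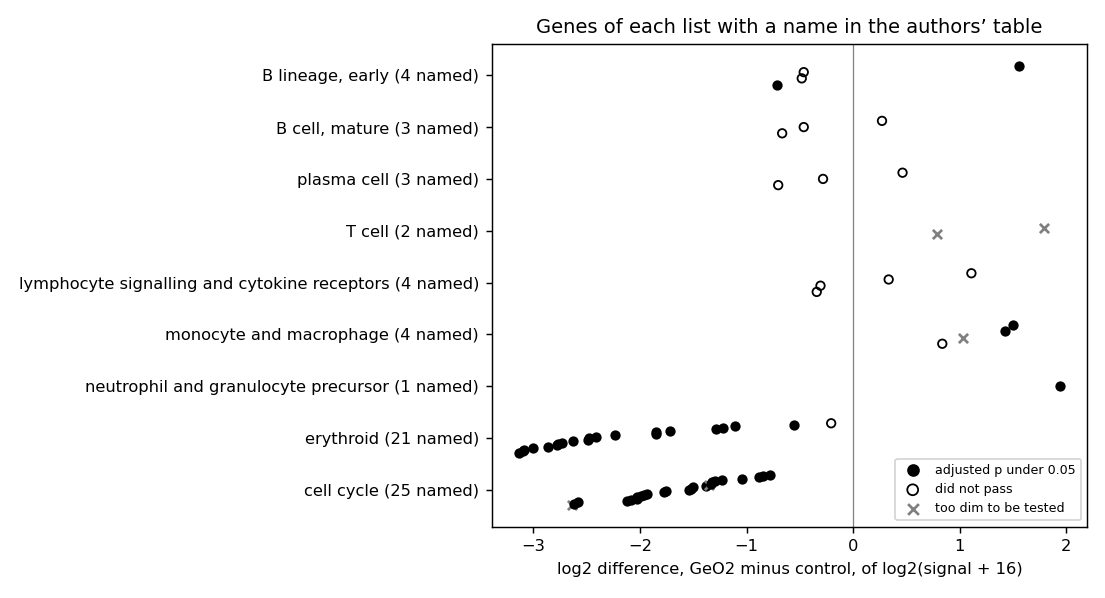
Log2 difference, GeO2 minus control, of each gene with a name in the authors' table, by gene list, 1 point per gene, with filled points called at an adjusted p under 0.05, open points not called and crosses too dim to be tested. The called B lineage genes are the members Ebf1 (lower) and Il7r (higher), and the T cell crosses are Cd3g and Gimap5.

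Markers of other blood cells also differed between the groups, some higher and some lower in GeO2. Of 20 monocyte and macrophage genes, 4 were named. Of these, Msr1, a scavenger receptor, and Mpeg1, a pore-forming protein of macrophages, were called higher, at 1.51 (SE 0.45) and 1.43 (SE 0.45), 1 did not pass and 1 was too dim. Their summed signal ran from 4499 to 16399 units in GeO2 and 2503 to 5276 units in control. Of 20 neutrophil genes, Cd177 alone was named, and it was called higher, at 1.95 (SE 0.73). Of 24 erythroid genes, 21 were named and 20 were called lower, with a summed signal of 67602 to 143602 units in GeO2 and 151750.0 to 272192 units in control. Of 26 cell cycle genes, 25 were named and 23 were called lower, with 34579 to 81295 units in GeO2 and 74977 to 142280.0 units in control. Of 12 platelet genes, 2 were named and 1 was called lower, Pf4, a platelet chemokine, at −1.37 (SE 0.40). Among adipocyte and marrow stroma genes, which include relatives of Ebf1, 4 of 15 were named and none passed. Of 15 bone genes, 5 were named, with 1 called higher and 1 lower. Of the cochlear lists, 1 of 2 named hair cell genes and 3 of 4 named supporting cell genes were called higher, and all 11 named genes of stria vascularis and spiral ligament were called lower. No named marker was at 0. The part of these cell types in the members' differences was not tested.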

How the data were processed

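Cochlear RNA from 5 GeO2 and 5 control samples was measured on Affymetrix arrays, 1 array per sample. The deposited values are linear intensities, computed with GCOS 1.3 for each probe set on each array, per the submitters' processing notes. The authors' deposited table gives a p-value, whose test is not named, and a fold change whose sign is negative for lower GeO2 values (treated as a score). Its closing note describes that deposited score as an average over 25 pairwise comparisons.

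From these, log2(signal + 16) was taken. The lowest 40% of probe sets by mean (18015 of 45037) were left out of the test. limma 3.58.1 in R 4.3.3 (lmFit, eBayes with trend, two-sided) was fitted to 27022 probe sets, with Benjamini-Hochberg adjustment and a threshold of 0.05; the code was tested on simulated data. Standard errors printed for genes come from the within-group spread and are not moderated.

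Names come from the authors' table (7095 probe sets with 1 symbol), updated through RefSeq genes on GRCm38.p6: 4291 were current, 2354 matched 1 synonym, 34 several and 416 none. The sources used here name no build for the array annotation. A gene's value is that of its brightest named probe set. The text names all members, up to 5 genes of each list described, and the 5 probe sets most like each of 2 representatives. The members and the 18 gene lists were chosen with earlier results of these data known. Same-numbered GeO2 and control arrays deviated with correlations of −0.05 to 0.17, not all over 0.1, so the numbers were not taken to pair samples. Alternatives were 2 other scalings, log offsets of 1 and 64, leaving out no probe sets or 60%, a replicate block, array weights, no variance trend, and leaving out each array. No 2 arrays held identical values.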

Additional observations from a re-analysis of the deposited data

How the results depend on the processing

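Each member's log2 difference kept its direction and moved by less than 1 SD between replicates under all 187 alternatives computed. Most of these could not have moved it that far. The filters, the replicate block and the variance trend leave a difference as it is, and leaving out 1 of 5 arrays cannot shift it by 1 SD. Only the scalings, offsets and array weights could have failed that limit. The number of member probe sets called was 7, and from 5 to 8 without single arrays. Of these, 6 were higher (4 to 6) and 1 lower (1 to 2, with 2 without GeO2 replicate 4). It was 5 under the 60% filter, where Il7r and Slfn2 were too dim to be tested, and 8 with array weights, where Ebf1 1448293_at was added. Calls over all probe sets also rose with array weights, from 4408 to 6197. They were 4037 under the 60% filter, where fewer probe sets were tested. With the replicate number as a block, the count was 7 of the members and 4431 of all probe sets, against 4408 without the block, and it changed no member's call. Over all probe sets the count ran from 2794 to 4854 without single arrays, with 1435 to 2482 higher and 1343 to 2372 lower. The lowest counts came without GeO2 replicate 5 (2794) and without control replicate 1 (2815). No within-group correlation passed under any of the 5 alternatives run. Weak correlations changed sign: Ebf1 with Cd3g (−0.094 with an offset of 1), Cd3g with Slfn2 (0.026 with an offset of 64, 0.20 without the 2 farthest arrays), Il7r with the erythroid list (−0.0089 with arrays shifted to a common median, −0.29 without the 2 farthest arrays) and Cd3g with the erythroid list (−0.11 with an offset of 64, −0.75 without the 2 farthest arrays); the cause was not tested. Dim signal limits Cd3g, whose difference ran from 1.31 to 2.15 over offsets and scalings.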

Other observations

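Some lymphocyte regulators outside the members and lists were looked at after their values were seen. Bcl2, the survival protein of lymphocytes and many other cells, was higher in GeO2 at 4 of 4 probe sets in the authors' table, and 3 of them were called in limma, led by 1443837_x_at at 1.18 (SE 0.24) on the log2 scale. Bcl6, the germinal centre repressor, was called higher at 0.62 (SE 0.14), and Bcl10, an adaptor of antigen receptor signalling to NF-kappaB, at each of 2 probe sets, by 0.95 (SE 0.24) and 0.39 (SE 0.08). Icos, a costimulatory receptor of activated T cells, was called higher at 0.93 (SE 0.28), with 532 ± 135 units in GeO2 and 279 ± 102 units in control (SD, n = 5 each). Bcl11a, a transcription factor of B cell and erythroid precursors, was called lower at both probe sets, at −0.88 (SE 0.18) and −0.61 (SE 0.20). Btg2, an antiproliferative gene, was called lower at −0.76 (SE 0.18) and −0.62 (SE 0.14). All of these stand in the authors' table, which was selected on the same arrays.

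A pair of antigen receptor probe sets carries a title but no symbol in the authors' table. The one titled for the heavy chain variable region VH4F6 (1455147_at) measured 210.0 ± 57.8 units in GeO2 and 342 ± 62.1 units in control (SD, n = 5 each), lower in GeO2 in 24 of 25 array pairs, opposite to the J558 probe sets. The one titled for a T cell receptor alpha chain of the V alpha 13 family (1443140_at) measured 99 ± 17.6 units in GeO2 and 67.6 ± 21.6 units in control (SD, n = 5 each), higher in GeO2 in 22 of 25. Both were too dim to be tested. Relatives of Ebf1 also differed in direction without a call: Ebf2 was at −0.49 (SE 0.18) and 0.29 (SE 0.13), and Ebf3 at 0.74 (SE 0.28).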
